A study of Homo sapiens with 6 samples.

Results

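EPHA4, NRP2 and AUTS2 are human genes of nervous system development that lie at anchors crowded with chromatin loops in HAP1 cells. EPHA4 is a receptor tyrosine kinase for ephrins, the membrane-bound ligands through which neighbouring cells repel each other and growing axons are steered. NRP2 (neuropilin 2) is a co-receptor for class III semaphorins, which guide axons, and for vascular growth factors of lymphatic vessels. AUTS2 encodes a nuclear protein linked to neurodevelopmental disorders and to a variant polycomb complex, and is a very long gene whose exons crowd towards its 3′ end. A loop belonged to a gene when either of its anchors overlapped the gene span widened by 10 kb on each side. By that rule 59 of the 46849 loops in the list (0.126%) were members: 16 at EPHA4, 15 at NRP2 and 28 at AUTS2. These genes were chosen because their anchors hold many loops, so the loop numbers below describe that choice and no test is attached to them.

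Contacts were measured by Micro-C, in which micrococcal nuclease cuts fixed chromatin into nucleosomes before nearby ends are ligated and sequenced. The cells were wild-type HAP1, a human leukaemia-derived line, with no drug or edit named in the labels, stained with Hoechst and flow-sorted for diploid cells. All 6 samples form 1 group and were combined in 1 loop list, so there is no replicate error. Poisson intervals cover counting error only. Intervals of medians treat the loops of a gene as independent although they share anchors, so they are a rough guide only. HAP1 is a single line of blood origin, and the loop list holds no measure of whether these genes are expressed in it.

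A loop is a pixel of the contact map, 5 or 10 kb wide on each side, where the observed contact count exceeds its surroundings. Its strength is given as the ratio of the observed count to the donut expectation, the count predicted from the ring around that pixel. Loops of this kind often join sites where the cohesin complex, which reels chromatin in, is halted by the DNA-binding protein CTCF, and others join promoters with distant elements. A long row of loops from a single anchor can appear where one end is held while chromatin is reeled past it. That is background, and neither CTCF nor cohesin was measured in the list. Coordinates are hg19. EPHA4 spans chromosome 2 from 222.283 to 222.437 Mb and is read from the minus strand, so that its start is the upper end. NRP2 spans chromosome 2 from 206.547 to 206.663 Mb and AUTS2 chromosome 7 from 69.064 to 70.258 Mb, both on the plus strand. Gene ends are known here to 1 kb.

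The bases before each gene start are shown because the loop-rich anchors of EPHA4 and NRP2 hold the start, whereas that of AUTS2 does not. The sequences are the 250 bases upstream of each start in RefSeq (GRCh38.p14, a different build from the loops), 5′ to 3′ on the gene's strand. All 3 genes were found in that table, EPHA4 with 2 starts 1.90 kb apart, which a 5 kb anchor cannot separate. Capitals mark matches, on either strand, to the GC box GGGCGG (bound by SP1-type factors) and the CCAAT box CCAAT. Matches that overlap were each counted.
EPHA4 outer start (chr2:221574203-221574452, minus): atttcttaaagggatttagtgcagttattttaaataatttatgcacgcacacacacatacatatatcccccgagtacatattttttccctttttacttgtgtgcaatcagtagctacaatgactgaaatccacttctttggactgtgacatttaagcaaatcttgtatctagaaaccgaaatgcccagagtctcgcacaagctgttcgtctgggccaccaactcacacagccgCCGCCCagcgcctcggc
EPHA4 inner start (chr2:221572305-221572554, minus): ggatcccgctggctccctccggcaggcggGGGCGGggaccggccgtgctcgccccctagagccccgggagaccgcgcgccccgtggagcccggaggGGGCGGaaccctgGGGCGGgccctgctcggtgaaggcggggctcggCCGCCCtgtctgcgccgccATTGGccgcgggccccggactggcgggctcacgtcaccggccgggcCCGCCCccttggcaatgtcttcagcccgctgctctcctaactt
NRP2 (chr2:205682251-205682500, plus): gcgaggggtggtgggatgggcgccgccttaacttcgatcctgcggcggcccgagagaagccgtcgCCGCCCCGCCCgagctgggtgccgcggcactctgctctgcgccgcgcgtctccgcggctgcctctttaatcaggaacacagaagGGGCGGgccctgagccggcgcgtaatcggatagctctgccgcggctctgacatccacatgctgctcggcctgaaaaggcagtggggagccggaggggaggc
AUTS2 (chr7:69598225-69598474, plus): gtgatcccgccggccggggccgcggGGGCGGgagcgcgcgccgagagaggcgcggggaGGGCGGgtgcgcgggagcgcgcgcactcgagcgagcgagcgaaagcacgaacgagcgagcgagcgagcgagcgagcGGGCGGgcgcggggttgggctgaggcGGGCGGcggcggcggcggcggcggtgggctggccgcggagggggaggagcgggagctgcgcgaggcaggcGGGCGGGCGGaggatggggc

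The inner EPHA4 start and those of NRP2 and AUTS2 were rich in CpG dinucleotides, with 30, 29 and 49 in 250 bases, against a median of 11 over the 35116 RefSeq windows of the same length. The outer EPHA4 start had 9. G and C made up 78.0% of the inner EPHA4 window, 70.0% of that of NRP2 and 82.8% of that of AUTS2, but 43.2% of the outer EPHA4 window. GC boxes numbered 5 at the inner EPHA4 start, 3 at NRP2, 6 at AUTS2 and 1 at the outer EPHA4 start, and 42.6% of all windows held at least 1. The single CCAAT box lay in the inner EPHA4 window (32.0% of all windows had one). The TATA box TATAAA (10.7% of windows) was found in 0 of the 4 windows. The AUTS2 start, the most CpG-rich of the 4, was thus not the anchor with the many loops.

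The place of the loops within each gene is given as counts without intervals, since loops of a gene share anchors. At EPHA4, 15 of 16 loops had an end within 10 kb of the gene start (93.8%). NRP2 was alike, with 13 of 15 (86.7%). At AUTS2 only 2 of 28 did so (7.14%), and 4 of 28 when the window around the start was 25 kb. Most AUTS2 loops stayed within the gene: 26 of 28 had both anchors in the widened span, against 4 of 16 at EPHA4 and 1 of 15 at NRP2. AUTS2 is also by far the longest of these genes, at 1194 kb against 154 kb for EPHA4 and 116 kb for NRP2, and the part of length in this was not tested.

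**Figure D1:**
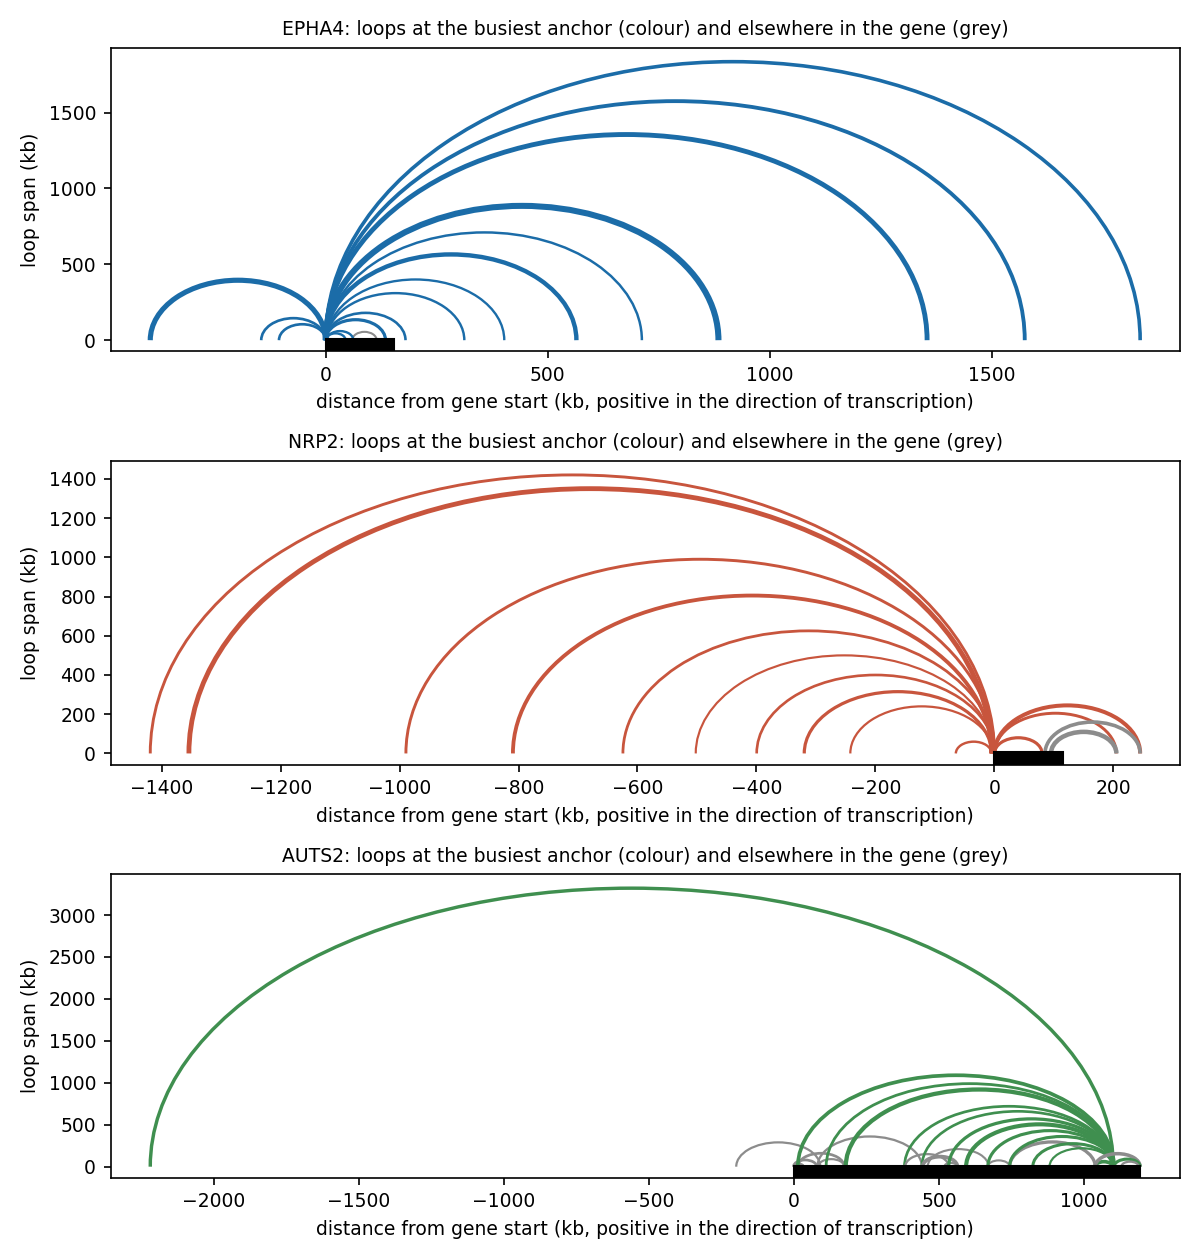
Loops of each gene drawn as arcs over the distance from the gene start (kb, positive in the direction of transcription), with the height equal to the loop span in kb, thicker lines for higher ratios and a black bar for the gene. Coloured arcs meet at the busiest anchor (15 loops at EPHA4, 13 at NRP2, 14 at AUTS2), which lies at the start of EPHA4 and NRP2 and near the 3′ end of AUTS2.

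Anchors that shared at least 1 bp were merged, and in each gene a single merged anchor of 10 kb held many of the loops. That of EPHA4 (chr2:222430001-222440000) contained the gene start and held 15 loops, while the next busiest anchor in the gene held 2. That of NRP2 (chr2:206540001-206550000) also contained the start and held 13 loops, against 1 at the next. In AUTS2 the busiest anchor (chr7:70160001-70170000) held 14 loops and lay inside the gene, with its midpoint 1101 kb downstream of the start and 93 kb short of the 3′ end; the next anchor held 3. Over the whole list 9 of 47497 merged anchors (0.0189%) held at least 13 loops, 7 (0.0147%) at least 14 and 4 (0.00842%) at least 15. Because such numbers put these genes on the list, their rank is only described.

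**Figure D2:**
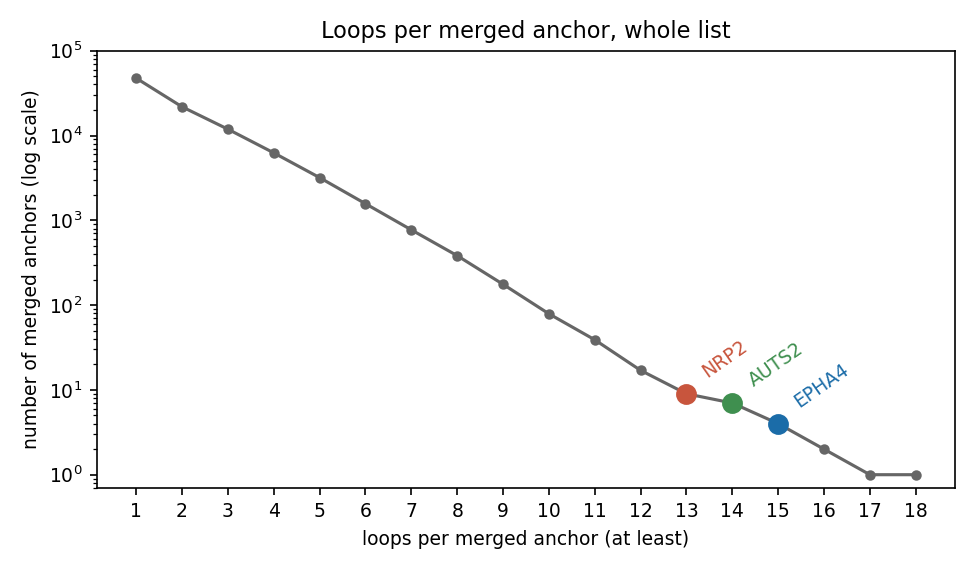
Number of merged anchors (log axis) that hold at least the given number of loops, over the whole list. The busiest anchors of NRP2 (13 loops), AUTS2 (14) and EPHA4 (15) are marked, where 9, 7 and 4 anchors remain.

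EPHA4 sent 12 of the 15 loops of its start towards lower coordinates, that is, down through the gene and beyond its 3′ end. Of those 12 partners, 3 lay within the gene and 9 beyond it, on the side of SLC4A3 (an anion exchanger). SLC4A3 is the next protein-coding gene there in the RefSeq order, and its hg19 position was not checked. The nearest partner, at chr2:222390001-222395000 and 45 kb from the start, had 105 observed contacts against 41.6 expected (ratio 2.52). The 10 kb pixel to chr2:222370001-222380000, 60 kb away, had 245 contacts (exact Poisson interval 215 to 278) against 95.5 (ratio 2.57). That was the highest count of the 59 loops, though most of these were smaller 5 kb pixels. The third partner in the gene, chr2:222300001-222305000, 135 kb away, had 65 contacts against 15.6 (ratio 4.16). Counts within the gene were thus high, and so was each expectation. At 45, 60 and 135 kb the expectations were 2.44, 2.35 and 1.77 times the median of loops of the same anchor width and similar span. The ratios were 1.01, 1.19 and 0.947 times the median of such loops, so they were ordinary for their span. What raised the expectations was not tested.

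Beyond the 3′ end of EPHA4 the counts were lower. At chr2:222255001-222260000 (180 kb from the start) the pixel had 37 contacts against 12.3, and its least significant q-value was 0.194. At chr2:222120001-222130000 (310 kb) it had 45 against 16.8, and at chr2:222030001-222040000 (400 kb) 38 against 15.1. Their ratios were 3.01, 2.67 and 2.52, which is 0.658, 1.06 and 0.946 times the median of like loops (the 500 of the same anchor width nearest in span). The partner at chr2:221870001-221875000 (565 kb) had 24 contacts against 3.73 (ratio 6.44), and that at chr2:221720001-221730000 (710 kb) 23 against 8.39 (ratio 2.74). The least significant q-values were 0.309 at 400 kb and 0.378 at 710 kb. The strongest loop of all 59 then followed: chr2:221550001-221555000, 885 kb from the start, had 43 contacts (interval 31.1 to 57.9) against 4.48, a ratio of 9.61. Like loops had a median ratio of 7.00, and this loop was 1.37 times that median. 3 more partners lay farther down, at chr2:221080001-221085000 (1355 kb, 18 contacts against 2.45), chr2:220860001-220865000 (1575 kb, 13 against 2.42) and chr2:220600001-220605000 (1835 kb, 14 against 2.86). The last of them was the longest EPHA4 loop, and its ratio of 4.90 was 0.576 times the median of like loops.

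On the other side, towards PAX3, a developmental transcription factor and the next protein-coding gene in the RefSeq order, EPHA4 had only 3 loops. The partner at chr2:222540001-222545000 (105 kb) had 88 contacts against 28.2, and that at chr2:222580001-222585000 (145 kb) 60 against 19.0, with ratios of 3.12 and 3.16. The third, chr2:222830001-222835000 (395 kb), had 104 contacts (interval 85.0 to 126) against 13.1, a ratio of 7.91 and 1.47 times the median of like loops. Together these 3 loops, all of 5 kb pixels, held 252 contacts. The 12 loops to the other side held 670, but 4 of them were 10 kb pixels, so the sums are not comparable. Their partners held 5, 4 and 3 loops in all, whereas 8 of the 15 partners of the EPHA4 start held that 1 loop only. The single EPHA4 loop that did not touch the start joined chr2:222320001-222325000 with chr2:222375001-222380000 inside the gene (55 kb, 42 contacts against 20.8, ratio 2.02).

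At NRP2 more loops of the list ran the other way with respect to transcription. Of the 13 loops at its start, 10 ran to lower coordinates, which here is upstream. The next protein-coding gene on that side in the RefSeq order is PARD3B, a gene of cell polarity. Which partners lie before, in or beyond PARD3B was not checked. Of these 13, the loops with no q-value above 0.1 were 4 upstream and 3 downstream, so most of the upstream excess lay in less significant loops. The nearest upstream partner, chr2:206480001-206485000, was 60 kb away and had 37 contacts against 14.0 (ratio 2.65). It was followed by chr2:206300001-206310000 (240 kb, 46 against 20.2) and chr2:206225001-206230000 (315 kb, 20 against 4.82). These 3 had ratios between 2.27 and 4.15.

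Farther upstream of NRP2 the counts were small. The pixels at chr2:206145001-206150000 (400 kb), chr2:206040001-206050000 (500 kb) and chr2:205920001-205925000 (625 kb) had 19, 30 and 12 contacts against 6.14, 14.1 and 3.59. The partner at chr2:205735001-205740000 (805 kb) had 17 against 3.18 (ratio 5.34), and that at chr2:205555001-205560000 (990 kb) had 11 (interval 5.49 to 19.7) against 3.04. The most distant were chr2:205190001-205195000 (1350 kb, 25 contacts against 3.45) and chr2:205125001-205130000 (1420 kb, 15 against 4.21). Of these, the loop of 1350 kb had the highest ratio of NRP2, 7.25, and the loop only 70 kb longer had 3.56. Several upstream loops were weakly supported: the least significant of the 4 q-values was 0.766 at 990 kb, 0.587 at 500 kb and 0.523 at 625 kb. None of the 10 upstream loops exceeded the median ratio of like loops (range 0.448 to 0.978 times).

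The 3 loops from the NRP2 start in the direction of transcription had a shorter median span and a higher median count than those upstream. A partner inside the gene, chr2:206625001-206630000 (80 kb), had 60 contacts against 14.9 (ratio 4.04). Beyond the 3′ end, chr2:206750001-206755000 (205 kb) had 28 against 7.71 and chr2:206790001-206795000 (245 kb) 56 against 9.86, with ratios of 3.63 and 5.68. Their median count was 56, against 19.5 for the 10 upstream loops, at median spans of 205 kb and 562.5 kb. The last 2 partners were reached from the NRP2 gene body as well: chr2:206640001-206645000 joined the one at 206750001 with 80 contacts against 12.0 (110 kb, ratio 6.67), and chr2:206630001-206635000 joined the one at 206790001 with 67 against 13.5 (160 kb, ratio 4.95). These 2 gene-body loops had the highest counts of NRP2 and were 1.68 and 1.16 times the median of like loops. On this side the next protein-coding gene in the RefSeq order is INO80D, a chromatin remodelling subunit.

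The NRP2 anchor is made of adjoining 5 kb bins that differed in use. The bin that holds the start (206545001 to 206550000) carried 7 of the 5 kb loops, 4 upstream and all 3 downstream. The bin just before the start (206540001 to 206545000) carried 4, all upstream. A further 2 loops, called with 10 kb anchors, covered both bins, with least significant q-values of 0.264 and 0.587. Among loops with no q-value above 0.1, the 4 upstream ones all used the bin before the start. The 3 downstream ones all used the start bin. At EPHA4 all 11 loops with 5 kb anchors used the bin 222435001 to 222440000. At AUTS2 the 9 loops with 5 kb anchors split into 5 in the lower and 4 in the upper bin. Without merging of bins the busiest anchor of NRP2 held 7 loops and that of AUTS2 5. A shift of a single bin is the resolution of the call, and whether the bins are separate sites was not tested.

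AUTS2 looked different: its busiest anchor sat deep in the gene and pointed back towards the start. Of its 14 loops 13 ran to lower coordinates, and 12 of those ended inside AUTS2. The nearest, chr7:70100001-70105000, was 60 kb away and had 101 contacts (interval 82.3 to 123) against 20.3. Its ratio of 4.96 was 1.83 times the median of like loops, the largest such excess of the 59 loops. The only loop to higher coordinates, to chr7:70255001-70260000 at the 3′ end of the gene (90 kb), had 59 contacts against 14.8 (ratio 3.98, 1.31 times the median).

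The other loops of that AUTS2 anchor had 9 to 50 contacts. Those at 220 kb (chr7:69940001-69950000), 275 kb (chr7:69885001-69890000) and 360 kb (chr7:69805001-69810000) had 50, 19 and 28 contacts against 22.6, 4.98 and 7.02. Partners at 430 kb (chr7:69730001-69735000), 505 kb (chr7:69655001-69660000) and 570 kb (chr7:69595001-69600000) had 20, 25 and 25 contacts against 4.98, 4.24 and 5.96. At 660 kb (chr7:69500001-69510000) and 720 kb (chr7:69440001-69450000) the 10 kb pixels had 34 and 29 contacts against 10.9 and 9.03. The counts of 10 kb pixels (50, 34 and 29) are not comparable with those of the smaller 5 kb pixels, which ranged from 19 to 28. Of these 8 loops 3 lay above the median of like loops, by at most 1.06 times.

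The far end of the row reached the first part of AUTS2. The pixel at 920 kb (chr7:69240001-69245000) had 9 contacts, the lowest count of the 59 loops (interval 4.12 to 17.1), against 1.46, which gives the highest ratio of AUTS2, 6.18. That ratio was 0.864 times the median of like loops. All 4 q-values of this loop were above 0.1, from 0.122 to 0.295. At 990 kb (chr7:69170001-69180000) 25 contacts stood against 7.49. The loop nearest to the start ended at chr7:69075001-69080000, its midpoint 13.5 kb downstream of the start, with 12 contacts against 2.36 over a span of 1090 kb (ratio 5.08, least significant q-value 0.105). No loop in the list joined the 10 kb either side of the AUTS2 start with this anchor. A last loop left the gene, to chr7:66840001-66850000 at 3320 kb, with 19 contacts against 4.14 in a single 10 kb pixel, the longest of the 59 and the only one of a single pixel (8.94% of all loops).

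At the AUTS2 start itself the list held 2 loops, both short. The bin chr7:69060001-69065000 joined chr7:69095001-69100000 (35 kb, 68 contacts against 29.6, ratio 2.30) and chr7:69140001-69145000 (80 kb, 62 against 19.4, ratio 3.20). The merged anchor around the latter (69140001 to 69150000) was joined in turn to chr7:69500001-69510000 (360 kb, 28 contacts against 11.8), which was a partner of the busiest anchor. The bin chr7:69075001-69080000, outside the 10 kb, was joined to chr7:69235001-69240000 (160 kb, 41 against 12.7) as well as to the busiest anchor, but had no loop to the start bin. In the list the start was connected to the distal anchor by way of 69140001 and 69500001, through loops with ratios of 3.20, 2.38 and 3.11. The middle loop was weakly supported, with a least significant q-value of 0.236. Another connection ran from that merged anchor to 69235001 (37 contacts against 17.1), then to 69075001 and the busiest anchor. It held only by merging: the start joined the bin 69140001 to 69145000, whereas the loop to 69235001 used the adjoining bin 69145001 to 69150000. The last loop of this connection had a least significant q-value of 0.105. A list pooled over cells does not say whether such contacts occur together.

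Of the 14 AUTS2 loops away from the busiest anchor, the strongest joined chr7:69505001-69510000 with chr7:69625001-69630000 (120 kb, 31 contacts against 5.95, ratio 5.21). Next were chr7:70100001-70105000 with chr7:70255001-70260000 (155 kb, 30 against 6.28) and chr7:69805001-69810000 with chr7:70100001-70105000 (295 kb, 25 against 5.81). Their ratios were 4.77 and 4.30. The weakest, chr7:69520001-69530000 with chr7:69730001-69740000, had 21 contacts against 10.1 (ratio 2.07). Apart from the loop of 3320 kb, only 1 crossed out of the widened span, from chr7:68860001-68870000 to chr7:69150001-69160000 (290 kb, 30 against 13.3).

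**Figure D3:**
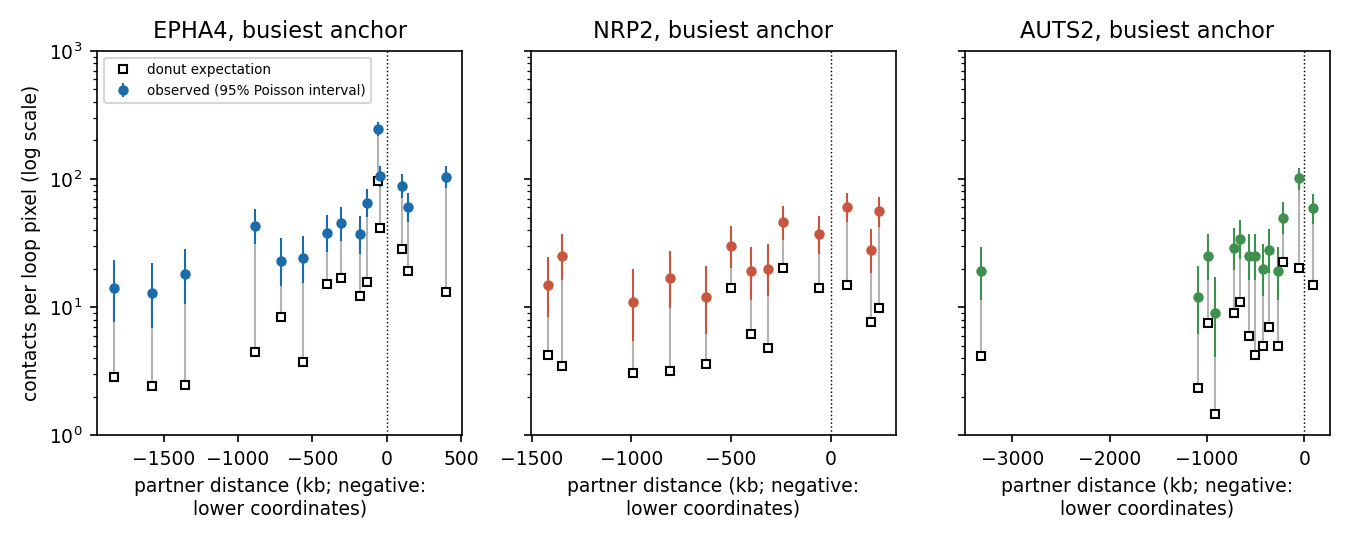
Observed contacts (filled, with exact 95% Poisson intervals) and donut expectation (open squares) of each loop at the busiest anchor of each gene, on a log axis, against the distance to the partner in kb (negative towards lower coordinates). Counts ranged from 13 to 245 at EPHA4, 11 to 60 at NRP2 and 9 to 101 at AUTS2, and each lay above its expectation, as every loop in the list does by construction.

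For their span, most loops of these genes were of ordinary or lower strength. The median ratio was 3.14 at EPHA4 (95% interval from order statistics 2.57 to 6.44), 3.63 at NRP2 (3.10 to 5.34) and 3.28 at AUTS2 (2.38 to 4.20), and 3.55 over all loops. These intervals treat loops that share anchors as independent, so they do not compare the genes, and a difference between the genes was not tested. Spans were longer than in the list as a whole, with medians of 352.5, 315 and 247.5 kb against 160 kb, and longer loops have higher ratios in this list. Loops at the 380 other merged anchors with at least 8 loops had a median span of 320 kb. Set against loops of the same anchor width and like span, 6 of 16 EPHA4 loops, 4 of 15 NRP2 loops and 8 of 28 AUTS2 loops exceeded the median, in all 18 of 59, where 49.7% of all loops do so. The median loop had 0.947, 0.825 and 0.895 times the ratio of like loops at EPHA4, NRP2 and AUTS2.

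The other side of that comparison was a high expectation. All 16 EPHA4 loops, 13 of 15 NRP2 loops and 22 of 28 AUTS2 loops had a donut expectation above the median of like loops, in all 51 of 59, against 49.2% of all loops. The median excess was 1.64 times at EPHA4, 1.31 at NRP2 and 1.19 at AUTS2. The ring around a pixel in a row of loops takes in part of the same row, and its part in these values was not tested. Each of the 4 q-values was at or below 0.1 for 13 of 16 EPHA4, 9 of 15 NRP2 and 16 of 28 AUTS2 loops, against 72.0% of all loops. Of the loops at the busiest anchors, 12 of 15 at EPHA4, 7 of 13 at NRP2 and 8 of 14 at AUTS2 met that limit.

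**Figure D4:**
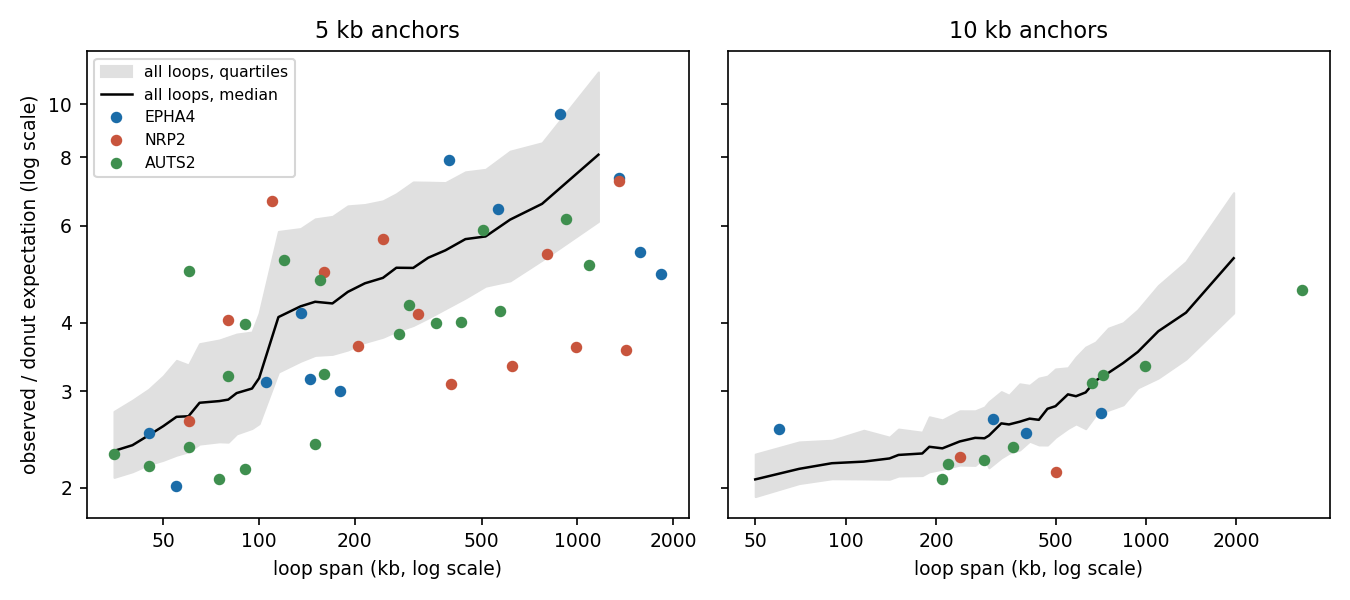
Ratio of observed to expected contacts against loop span (both log axes) for 5 kb anchors (left) and 10 kb anchors (right), with the median and quartiles of all loops in bins of span. Most points lie under the median line, 41 of 59 by the comparison with the 500 loops nearest in span.

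The caller also gives a vertical and a horizontal expectation, from strips of pixels along either axis of the contact map. Which axis carries which name is not stated in the file, so the values are given by those names only. Among loops that ran to lower coordinates from the busiest anchor, the vertical value was the higher in 8 of 12 at EPHA4, 8 of 10 at NRP2 and 12 of 13 at AUTS2, against 50.4% of all loops. The median log2 difference (vertical over horizontal) was 0.21, 0.38 and 0.37. At the 380 other merged anchors with at least 8 loops, the vertical value was the higher in 64.9% of loops to lower coordinates (median 0.18), and the horizontal one in 66.6% of loops to higher coordinates (median log2 difference -0.20), where 49.6% of all loops have it the higher. The 7 loops to higher coordinates from the 3 genes did not share the latter: the vertical value was the higher in each, with medians of 0.63 at EPHA4 and 0.27 at NRP2 and 0.18 for the single AUTS2 loop.

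Partners of the busiest anchors were mostly not busy themselves. Their median number of loops was 1 at EPHA4 and 2 at NRP2 and AUTS2, and 3 at the other merged anchors with at least 8 loops. Of the partners, 8 of 15, 5 of 13 and 6 of 14 held that single loop, against 21.0% at those other anchors. One-sidedness was usual there as well: 218 of the 380 (57.4%) sent at least 75% of their loops to the same side, where EPHA4 sent 80.0%, NRP2 76.9% and AUTS2 92.9%. The median ratio at the other anchors was 4.15, and 45.6% of their loops exceeded the median of like loops, against 6 of 15, 2 of 13 and 5 of 14 at the busiest anchors of EPHA4, NRP2 and AUTS2. The list is 1 pooled set, so these differences were not tested.

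Some partners were joined to each other, closing triangles of loops. EPHA4 had 3 such triangles, NRP2 6 and AUTS2 4, and each held the busiest anchor of its gene. Only anchors of each gene's loops were searched: 17, 16 and 26, with 15, 13 and 14 partners of the busiest anchor. At EPHA4 and NRP2 a triangle therefore held that anchor almost by construction. Some triangles at NRP2 and AUTS2 closed only because adjoining 5 kb bins were merged. The number of triangles at other busy anchors was not computed, so these counts are only described. At EPHA4 the strong partners on either side, at 221550001 and 222830001, were joined over the gene by a loop of 1280 kb with 25 contacts (ratio 3.59). It was the only loop in the list that passed over the whole EPHA4 span. At NRP2 the partners at 205190001 and 205555001 were joined by 50 contacts against 4.93 (365 kb, ratio 10.1). With the merged NRP2 anchor they had 25 and 11 contacts, at spans of 1350 and 990 kb, so the counts are not comparable. The loop from 205190001 ended in the bin before the start and that from 205555001 in the start bin. This triangle thus closed only by merging. The outermost partners of NRP2, at 205125001 and 206790001, were joined over a span of 1665 kb by 17 contacts (ratio 5.10). At AUTS2 the partner at 70100001 took part in 2 of the triangles. In one, its loops to the busiest anchor (101 contacts) and to the 3′ end (30) were closed by a loop of 59 contacts. The loop of 101 contacts used the lower 5 kb bin of the busiest anchor and that of 59 the upper bin. That triangle thus closed only because the bins were merged, and whether they are separate sites was not tested.

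The stretch between the outermost partners was set by each anchor's own loops, so all of these fall within it by construction. The share at other anchors was not computed, so the counts below are only described. Of the loops with both anchors in that stretch, the EPHA4 start held 15 of 30 over 2.24 Mb and the NRP2 start 13 of 27 over 1.68 Mb. The AUTS2 anchor held 14 of 28 over 3.42 Mb. These 28 were the gene's own loops, and the stretch owed its length to the single-pixel loop of 3320 kb. The remaining loops were shorter, with median spans of 195, 117.5 and 135 kb. Passing over the widened spans were 2 loops at NRP2 and 8 at AUTS2. The 8 over AUTS2 had spans of 4360 to 5730 kb and ratios of 9.49 to 177, with 13 to 47 contacts; they start and end outside the gene and are no members. EPHA4 and NRP2, 15.6 Mb apart on chromosome 2, shared 0 loops.

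Without the added 10 kb, EPHA4 and AUTS2 had the same number of loops and NRP2 had 11. The 4 NRP2 loops from the bin just before the start touch the added 10 kb but not the gene span, with ratios of 2.65 to 7.25 and 17 to 37 contacts. The nearest anchors outside the widened spans lay 13 kb below and 23 kb above EPHA4, 52 and 77 kb from NRP2 and 184 and 22 kb from AUTS2. The anchor above EPHA4 held 3 loops, all to higher coordinates, with ratios of 3.08 to 3.55. The anchor above AUTS2 held 1, with 23 contacts and a ratio of 10.98.

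The merged anchors most like these were chosen by loop number (within 2), share of loops on the busier side and then median span, over the whole list. For EPHA4 and AUTS2 they were the same: chr3:71630001-71640000 (13 loops, 12 to lower coordinates, median span 340 kb) and chr6:139690001-139700000 (14 loops, 13 to higher coordinates, 680 kb). For NRP2 they were chr3:113870001-113880000 (12 loops, 9 to higher coordinates, 365 kb) and chr6:82460001-82470000 (12 loops, 9 to lower coordinates, 295 kb). Their median ratios were 3.20, 4.76, 4.76 and 3.27, and the busiest anchors of EPHA4, NRP2 and AUTS2 had 3.16, 3.62 and 4.00. For EPHA4 only 5 anchors elsewhere had a loop number within 2, and the 2 chosen were more one-sided than its 12 of 15. Which genes lie at those anchors was not analysed here.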

How the data were processed

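Micro-C of 6 HAP1 samples (fixed in 1% formaldehyde for 10 min, then 3 mM DSG for 45 min, per the labels' protocols) gave 1 deposited loop list. Replicates are not told apart in it. How libraries were pooled, and their depth, was not given in the sources used here. Per the file headers the list was written by juicer_tools 1.22.01. The submitters' processing notes name BWA and hg19. The authors deposited whole observed contact counts (at least 8 per loop) and the number of merged pixels as counts. They also deposited 4 expected values per loop, a signal on the count scale. The deposited q-values are p-values adjusted by the caller. The ratio of observed to expected was computed here. No loop in the list had a ratio under 1.75, so weaker contacts are not seen here.

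Gene spans were those of the selection rule. Members and lists were chosen with earlier results of these data known. Strands, upstream sequences and gene order come from RefSeq tables (GRCh38.p14). No hg19 annotation was used, so partners are named by position, and other ephrin, semaphorin and polycomb genes were not analysed here. Loops named are those of each busiest anchor, plus the 3 highest ratios, 3 highest counts and longest loop per gene, and others singled out after their values were seen. Functions were tested on simulated data. Intervals are exact Poisson for counts and from order statistics for medians, the latter treating loops as independent. Exact binomial intervals of shares, which treat loops as independent, served only to compare alternatives. Alternatives covered the widening, the window at the start, q-values, pixels, anchor width, merging and the expectation used. Software: Python 3.11.15 with scipy 1.17.1, pandas 2.3.3 and numpy 2.4.6, and matplotlib 3.10.9 for plots.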

Additional observations from a re-analysis of the deposited data

How the results depend on the processing

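Of 104 alternative values for 18 results, 94 stayed within 1.5 times (counts) or within the interval of the value reported. Those intervals treat loops as independent and are wide, so staying within them is a weak check. With only 5 kb anchors the EPHA4 median ratio was 4.53 (3.14 as reported), still within its interval. The interval for direction at AUTS2, from 2 outward loops, ran from 15.8 to 100%. The 10 values outside these limits follow. With only loops whose 4 q-values were each at or below 0.1, 9 loops were left at NRP2 and 16 at AUTS2, and their busiest anchors held 4 and 8. At NRP2 the 10 kb loops that had joined the adjoining bins drop out, so that the 7 loops left at the start count as 4 and 3. With the same limit, loops to lower coordinates made up 50.0% of the outward NRP2 loops (71.4% as reported), within the interval used for the comparison. With only 5 kb anchors, or with bins not merged, the busiest anchor of NRP2 held 7 loops and that of AUTS2 5, since adjoining bins then count apart. With the largest of the 4 expectations in place of the donut one, the median ratio was 2.33 at EPHA4 and 2.77 at NRP2. The loops of AUTS2 near its start numbered 2 or 4 by the window used, a share within its interval. No paired analysis was possible because all samples form 1 group and the list pools them; replicates could not be left out for the same reason. A count of 9 contacts has an interval of 4.12 to 17.1, so single loops are known only roughly.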
